A study of Caenorhabditis elegans with 6 samples.

Results

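Vesicle coats are protein shells that bend membrane into transport carriers and pick their cargo. The genes described here encode the COPI and COPII coats, clathrin and its adaptor complexes, the accessory proteins of endocytosis, and retromer with its endosomal partners. They were chosen by symbol from a fixed list of 39 names, of which 37 name a row in the count tables of 46748 genes. The remaining names are copg-1 and sec-16A.1. RefSeq pairs copg-1 with the sequence name T14G10.5, which has a row, so its values are given beside COPI but enter no count or median. No row was matched to sec-16A.1, and it is not analysed here.

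RNA was sequenced from anchor cells (n = 3 libraries) and from whole-body cells (n = 3 libraries) of wild-type Caenorhabditis elegans. The larvae were at the mid L3 stage, with 2 descendants of the vulval precursor cell P6.p. The anchor cell is the uterine cell that breaches the basement membrane between it and the vulval cells. Both kinds of cell came from larvae grown at 20 °C, dissociated with pronase at 15 mg per mL and passed through a 5 μm filter. The sources used here do not give how anchor cells were separated from the rest, or how many animals went into a library. Nothing in the labels says that libraries of a group came from separate cultures, so p-values measure the spread between these libraries only.

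COPII carries newly made protein from the endoplasmic reticulum towards the Golgi, and COPI carries material back from the Golgi and between its cisternae. Clathrin works through adaptors, with AP-2 at the plasma membrane and AP-1 at the trans-Golgi network and endosomes, while AP-3 sorts proteins to lysosome-related organelles. Retromer and sorting nexins recover cargo from endosomes for the Golgi or the cell surface. In the anchor cell, membrane delivered by exocytosis is known to feed the protrusion that crosses the basement membrane.

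The libraries held 23279623 to 37501816 counts on genes. Against 2.01% of all tested genes, 7 of 10 known anchor cell markers rose (adjusted p under 0.05 in edgeR). Of the rest, him-4 was lower on average, with 262, 133 and 163 CPM (counts scaled to a common library size, with sizes adjusted by TMM, the trimmed mean of M-values) in anchor cell replicates, against 266, 218 and 433 CPM in whole-body replicates, with overlap. The groups also overlapped for zmp-1, with means (± SD, n = 3) of 1.02 ± 0.44 CPM in anchor cells and 0.665 ± 0.37 CPM in whole-body cells. The last of the rest, lin-3, was higher with no overlap but did not pass (edgeR adjusted p = 0.0941). It had 54.5, 51.6 and 20.5 CPM in anchor cell replicates, against 13.5, 9.96 and 14.5 CPM in whole-body replicates. The regulator gene nhr-67 reached 70.7, 249 and 169 CPM in anchor cell replicates 1, 2 and 3, against 2.16, 1.19 and 0.778 CPM in whole-body replicates 1, 2 and 3. Anchor cell replicate 1 stood apart in its RNA, with 48.1% of its gene counts on the mitochondrial genome, against 22.9% and 23.9% in anchor cell replicates 2 and 3 and 4.68% to 7.17% in whole-body libraries. Markers of other cells were also read. The summed CPM of 9 body wall muscle genes was 7513 to 13621 in anchor cell and 15260 to 21781 in whole-body libraries. Of the 9, 2 fell, against 1.05% of all tested genes. Only act-4 had a log2 fold change above 0 (0.54, with overlap), and it held 2238, 5111 and 6638 CPM of the sum in anchor cell replicates. For 11 germ line genes the sum was 171 to 381 CPM in anchor cell libraries, against 440 to 558.1 CPM in whole-body libraries. Of the 11, 3 fell, against 1.05% of all tested genes. Both mex-5 and him-3 were at 0 counts in at least 1 anchor cell library. Most of the anchor cell sum was nos-3, at 127, 184.5 and 305 CPM, against 160, 167 and 159 CPM in whole-body replicates. The gene pie-1 was higher in anchor cells, at 19.8, 59.1 and 48.2 CPM, against 4.43, 5.13 and 12.2 CPM in whole-body replicates. DESeq2 and limma voom each called 1 germ line gene higher and 8 lower. For 9 intestine genes the sum was 119.2 to 569 CPM in anchor cell libraries, against 515 to 1028 CPM in whole-body libraries. None of them passed in edgeR, DESeq2 or limma voom. The edgeR unadjusted p was under 0.05 for 0 higher and 1 lower, against 11.2% and 13.2% of tested genes. Log2 fold changes were above 0 for 3 of 9 (elt-2, vit-2 and cpr-1, each with overlap), against 46.8% of tested genes. The gene elt-2 had 0.119, 14.5 and 13.1 CPM in anchor cell replicates, against 6.69, 10.9 and 2.62 CPM in whole-body replicates. The gene ges-1, at 0 in at least 1 anchor cell library, had 94, 254 and 10 counts in whole-body replicates. For 9 epidermis genes the sum was 589.8 to 6036 CPM in anchor cell libraries, against 206 to 963 CPM in whole-body libraries. None passed in edgeR, where the unadjusted p was under 0.05 for 3 higher and 1 lower, against 11.2% and 13.2% of tested genes. DESeq2 called 2 higher and 1 lower, and limma voom 1 and 1. Their log2 fold changes went both ways, with 5 of 9 above 0, against 46.8% of tested genes. The highest was of bli-1, with 211, 93 and 179 CPM in anchor cell replicates, against 1.2, 1.5 and 19.3 CPM in whole-body replicates. In anchor cell replicates sqt-3 held 196, 1488 and 4872 CPM of the sum. The lowest was of dpy-17, at 0 in at least 1 anchor cell library. Neuronal genes were higher in sum, with overlap between the groups for some of them. The 12 neuron markers summed to 1885 to 3343 CPM in anchor cell and 387 to 636 CPM in whole-body libraries. Of the 12, 11 had a log2 fold change above 0, against 46.8% of tested genes, or 8 with library totals, against 28%. In 5 of 12 every anchor cell library lay above every whole-body library, against 12.4% of tested genes. In edgeR 1 rose, unc-119, against 2.01%. It had 506, 2604 and 2123 CPM in anchor cell replicates, against 4.505, 3.57 and 1.84 CPM in whole-body replicates. The sum of the other 11 followed another order, at 1379, 739 and 906 CPM in anchor cell replicates. Why unc-119 was so high was not tested. Without unc-119 the other 11 still summed to 739 to 1379 CPM in anchor cell libraries, against 385 to 632 CPM in whole-body libraries, and no neuron marker was at 0 in any anchor cell library. Clathrin, its adaptors and the endocytic genes are abundant in neurons, and the part of neuronal RNA in their values was not tested.

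Coat genes were higher in anchor cells as a group, but few passed the test singly. Of the 37 genes, 3 rose (adjusted p under 0.05, quasi-likelihood test of edgeR), against 2.01% of the 11955 genes tested. The 3 were the clathrin heavy chain gene chc-1, the AP-2 small subunit gene aps-2 and the COPI small subunit gene copz-1. None fell, against 1.05% of all tested genes. At an unadjusted p under 0.05, 17 members were higher and 0 lower, against 11.2% and 13.2% of tested genes. DESeq2 called 7 members higher and 0 lower, against 5.37% and 10.6% of the genes it tested. Limma voom called 5 higher and 0 lower, against 3.45% and 9.47%, and with sample weights 10 higher and 0 lower, against 5.31% and 11%. All 37 members passed the filter on low counts, and all had a log2 fold change above 0, against 46.8% of tested genes. With libraries scaled by their totals alone, 22 of 37 were above 0, against 28% of tested genes.

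The median log2 fold change (anchor cell over whole body) of the 37 genes was 0.99, with a range of 0.21 to 2.99, and that of all tested genes was -0.12. Scaling by library totals moved these medians to 0.14 and -0.94, so their distance was 1.11 under the first scaling and 1.08 under the second. In 23 of 37 genes every anchor cell library lay above every whole-body library, against 12.4% of tested genes. No member had the opposite order. The share of counts taken by the members, which needs no scaling factor, was higher as well. They took 1.42%, 1.36% and 1.33% of the counts outside rRNA and the mitochondrial genome in anchor cell replicates 1, 2 and 3, against 0.804%, 0.934% and 0.841% in whole-body replicates 1, 2 and 3. The groups did not overlap in that share, which exceeded 1.3% in every anchor cell library and stayed under 1% in every whole-body library. As shares of all gene counts the groups overlapped, at 0.477%, 0.466% and 0.565% in anchor cells against 0.325%, 0.5902% and 0.345% in whole-body cells. In bulk RNA, a difference in the number of cells of a type and one in RNA per cell cannot be told apart.

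**Figure D1:**
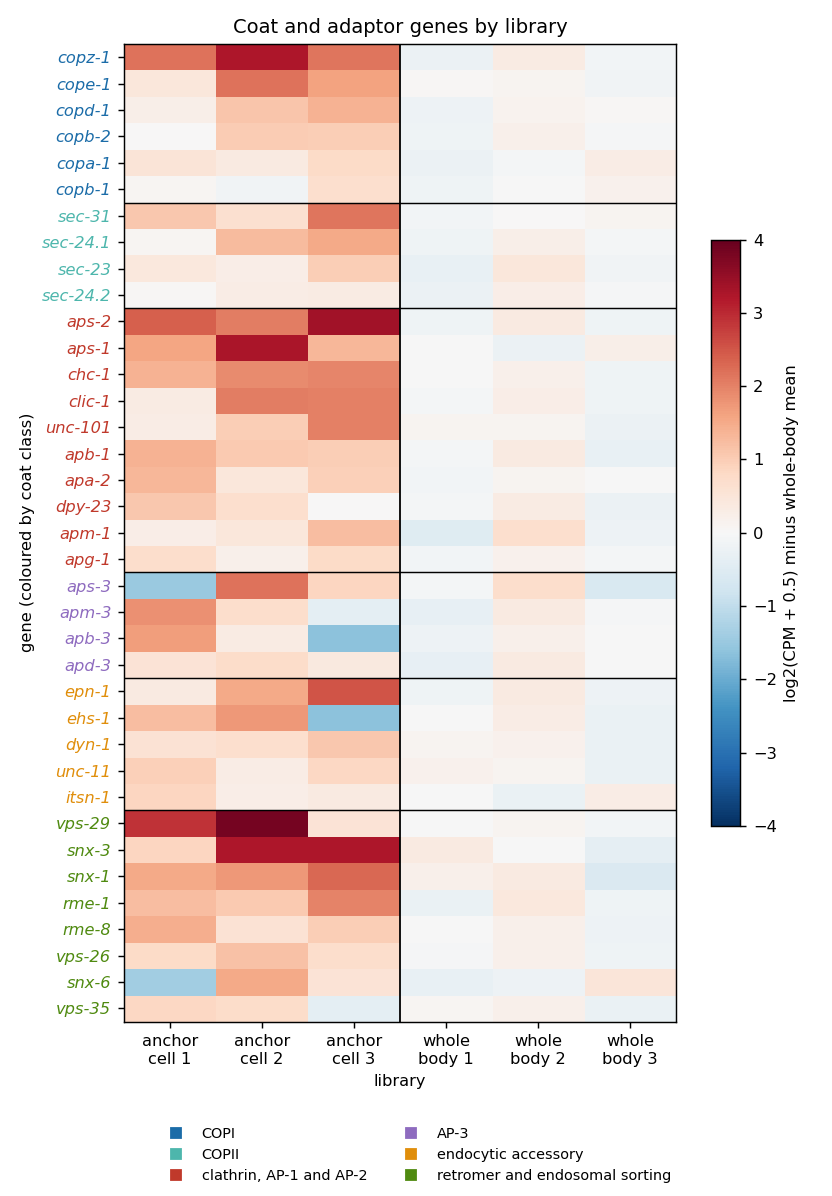
Each cell shows log2(CPM + 0.5) of 1 gene (rows, grouped and coloured by coat class) in 1 library (columns), minus the mean of the 3 whole-body libraries. Red is above and blue below that mean. The anchor cell columns are mostly red, with aps-3, snx-6, apb-3, apm-3, ehs-1, vps-35 and copb-1 below the whole-body mean in 1 anchor cell library each.

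COPI is recruited to Golgi membrane as a preformed complex of several subunits, and 6 of its subunit genes are members. Its median log2 fold change was 0.86, but -0.04 with library totals, and 1 of the 6 rose, against 2.01% of tested genes. The riser was copz-1 (chromosome II, 10872879 to 10873796), which encodes the small zeta subunit. It had 23.5, 49.3 and 22.7 CPM in anchor cell replicates 1, 2 and 3, against 4.02, 6.20 and 4.49 CPM in whole-body replicates 1, 2 and 3. All anchor cell libraries lay above all whole-body libraries, and replicate 2 was the highest. The log2 fold change was 2.70 ± 0.63 (SE; edgeR adjusted p = 0.0495). That p lies close to the threshold, and the call was lost with upper-quartile scaling (edgeR adjusted p = 0.0636), with library totals (0.144), without anchor cell replicate 2 (0.105) or without whole-body replicate 1, 2 or 3 (0.214, 0.155 and 0.136).

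The other COPI genes did not pass. The epsilon subunit gene cope-1 had the highest level per length of the 6 in anchor cells, 143 ± 76.0 CPM per kb of exon against 48.3 ± 4.57 in whole-body cells (SD, n = 3 each). It had 73.1, 242 and 163 CPM in anchor cell replicates, against 55.2, 57.7 and 47.9 CPM in whole-body replicates, with no overlap (log2 fold change 1.57 ± 0.48, SE; edgeR adjusted p = 0.0808). Anchor cell replicate 1 was the lowest of its group and close to the whole-body libraries. At the other end, the beta subunit gene copb-1 had 247, 214 and 375 CPM in anchor cell replicates and 211, 234.7 and 265 CPM in whole-body replicates, and the groups overlapped (log2 fold change 0.23 ± 0.38, SE; edgeR adjusted p = 0.766). The subunit genes copa-1 (alpha), copb-2 (beta prime) and copd-1 (delta) had log2 fold changes of 0.54, 0.74 and 0.99. Groups did not overlap for copa-1 and copd-1. The row T14G10.5, which stands for the gamma subunit gene copg-1, had 188.5, 288 and 539 CPM in anchor cell replicates, against 144, 190.2 and 118.8 CPM in whole-body replicates, with a log2 fold change of 1.16 ± 0.46 (SE; edgeR adjusted p = 0.155). Anchor cell replicate 1 lay just under whole-body replicate 2.

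The subunits of a coat need not move together in their transcripts. Within COPI the log2 fold changes spanned 0.23 to 2.70. Zeta and epsilon stood at the top, and beta, the subunit with the highest level per length in whole-body cells at 73.6 ± 8.42 CPM per kb (SD, n = 3), stood at the bottom. The level of copz-1 per length was 45.95 ± 21.8 CPM per kb in anchor cells and 7.07 ± 1.65 in whole-body cells (SD, n = 3 each), the lowest of the 6 in the whole-body libraries. In anchor cells copa-1 had the lowest level per length of the 6, at 36.9 ± 4.99 CPM per kb.

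No COPII gene passed the test. Over its 4 genes the log2 fold change had a median of 0.81, but -0.11 with library totals and 0.54 without anchor cell replicate 3. In edgeR 2 were higher at an unadjusted p under 0.05 and 0 lower, against 11.2% and 13.2% of tested genes. Neither DESeq2 nor limma voom, with or without sample weights, called any. The largest difference was of sec-31, which encodes the outer cage, with 184, 135 and 385 CPM in anchor cell replicates, against 80.1, 86.8 and 93.9 CPM in whole-body replicates (log2 fold change 1.43 ± 0.46, SE; edgeR adjusted p = 0.0910). Its anchor cell libraries all lay above the whole-body libraries, with replicate 3 far above the others. The inner-layer gene sec-23, which encodes the activator of the Sar1 GTPase, had the highest level per length of the class in anchor cells, 110.4 ± 30.9 CPM per kb, against 75.0 ± 21.3 in whole-body cells (SD, n = 3 each). It had 253, 228 and 378 CPM in anchor cell replicates and 154, 257 and 172 CPM in whole-body replicates. The groups overlapped through whole-body replicate 2.

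The sec-24 genes encode alternative cargo-binding partners of SEC-23. The smallest difference of the class was of sec-24.2, with 195, 231 and 238 CPM in anchor cell replicates and 162, 228 and 185 CPM in whole-body replicates (log2 fold change 0.21 ± 0.36, SE; edgeR adjusted p = 0.783). Its paralog sec-24.1 had 188, 434 and 513 CPM in anchor cell replicates and 161, 213 and 169.5 CPM in whole-body replicates (1.06 ± 0.44, SE; edgeR adjusted p = 0.174). Groups overlapped for both genes. The ratio of sec-24.1 to sec-24.2 per length was 0.92, 1.80 and 2.06 in anchor cell replicates 1, 2 and 3, against 0.952, 0.892 and 0.878 in whole-body replicates. Replicate 1 had a ratio like that of the whole-body libraries while replicates 2 and 3 stood above it (exact permutation test, two-sided p = 0.2, adjusted p = 0.375 over 5 ratios, where 0.1 is the smallest p possible).

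**Figure D2:**
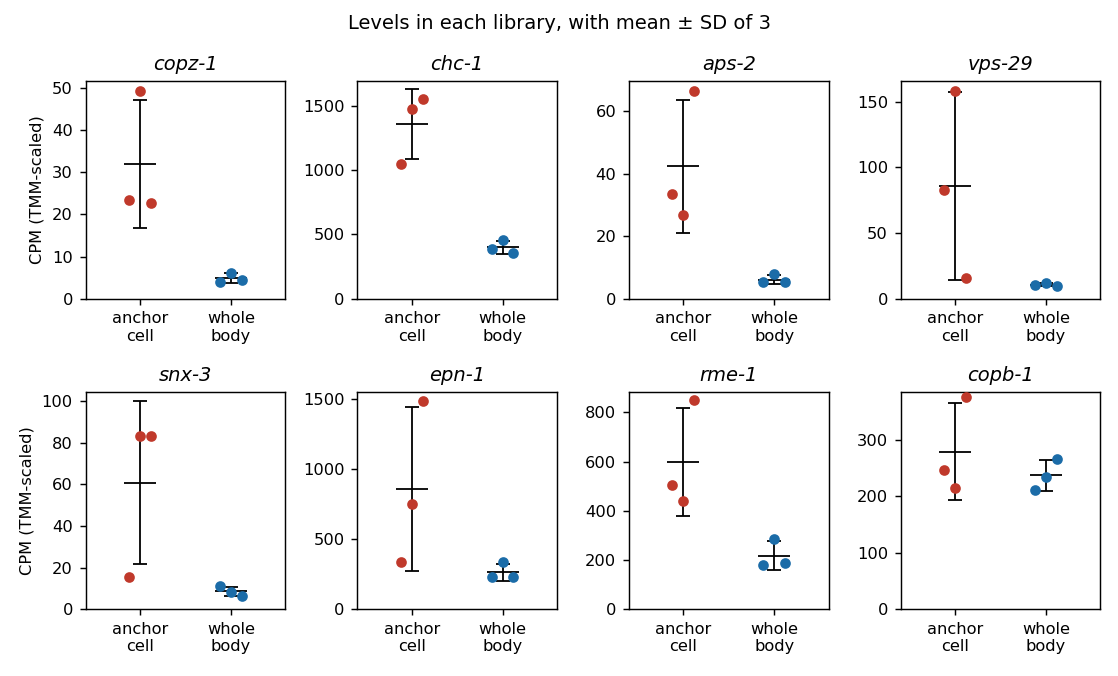
Points show CPM, scaled by TMM, of 8 genes in each library, with anchor cells (red) left of whole-body cells (blue), and bars give mean ± SD of 3 libraries. The whole-body points lie close together, whereas the anchor cell points of vps-29, snx-3 and epn-1 spread widely, and only copb-1 of the 8 shows overlap between the groups.

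Clathrin and its AP-1 and AP-2 adaptors held both other calls. Over the 10 genes the log2 fold change had a median of 1.23 (0.34 with library totals), and 2 rose, against 2.01% of tested genes. The heavy chain gene chc-1 (chromosome III, 10203821 to 10209704), whose product forms the legs of the clathrin triskelion, had the highest level per length of the 10 in anchor cells, 252 ± 50.0 CPM per kb against 74.2 ± 9.37 in whole-body cells (SD, n = 3 each). Per library it had 1052, 1476 and 1553 CPM in anchor cell replicates, against 390, 455 and 356 CPM in whole-body replicates. Every anchor cell library exceeded every whole-body library, and the log2 fold change was 1.77 ± 0.37 (SE; edgeR adjusted p = 0.0353). The call was lost with library totals (edgeR adjusted p = 0.223), without anchor cell replicate 2 or 3 (0.0820 and 0.0665) or without whole-body replicate 1, 2 or 3 (0.192, 0.113 and 0.136).

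The light chain gene clic-1 differed by 1.66 ± 0.52 (SE; edgeR adjusted p = 0.0846), with 46.4, 154 and 151 CPM in anchor cell replicates and 34.7, 44.1 and 32.4 CPM in whole-body replicates. Light to heavy chain ratios per length were 0.233, 0.554 and 0.514 in anchor cell replicates, against 0.471, 0.513 and 0.482 in whole-body replicates. Replicate 1 was thus the lowest of all 6 libraries and the others were near the whole-body value (exact permutation test, two-sided p = 1). Of the exons of clic-1, 14.8% of the length lies opposite a noncoding RNA gene, and the strand setting of the counting is unknown here.

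AP-2 has its own alpha, mu and sigma subunits, and in the worm it shares the beta subunit APB-1 with AP-1. The sigma gene aps-2 (chromosome X, 4458272 to 4459255) rose. It had 33.7, 26.8 and 66.6 CPM in anchor cell replicates, against 5.35, 7.82 and 5.27 CPM in whole-body replicates. The groups were far apart, and the log2 fold change was 2.78 ± 0.60 (SE; edgeR adjusted p = 0.0392). Its call was lost with library totals (edgeR adjusted p = 0.109), without anchor cell replicate 2 or 3 (0.0532 and 0.0606) or without whole-body replicate 1, 2 or 3 (0.181, 0.113 and 0.136). The alpha gene apa-2 differed by 0.96 with no overlap, and the mu gene dpy-23 by 0.63 with overlap; neither passed (edgeR adjusted p = 0.183 and 0.445). The ratio of aps-2 to apa-2 per length was 1.33, 1.94 and 3.46 in anchor cell replicates, against 0.573, 0.718 and 0.535 in whole-body replicates. Anchor cell libraries all had the higher ratio (difference of 1.78 on the log2 scale; exact permutation test, two-sided p = 0.1, the smallest this design allows, adjusted p = 0.375 over 5 ratios).

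None of the AP-1 subunits passed in edgeR, while DESeq2 and limma voom with sample weights called the sigma gene aps-1 higher (adjusted p = 0.0207 and 0.0306). The shared beta gene apb-1 differed by 1.12 with no overlap (edgeR adjusted p = 0.100). The gamma gene apg-1 had the smallest difference of the class, with 118, 83.1 and 121 CPM in anchor cell replicates and 66.5, 81.2 and 67.3 CPM in whole-body replicates (log2 fold change 0.58 ± 0.39, SE; edgeR adjusted p = 0.406). Its groups did not overlap, by a small margin. The sigma gene aps-1 differed by 2.52 ± 0.85 (SE; edgeR adjusted p = 0.101), from 214, 563 and 149 counts in anchor cell replicates and 105, 129 and 88 counts in whole-body replicates. The worm has alternative AP-1 mu chains. The gene unc-101 was the minor one per length in both groups, with 8.92 ± 5.54 CPM per kb in anchor cells and 3.54 ± 0.49 in whole-body cells, against 57.1 ± 21.4 and 37.02 ± 16.6 CPM per kb of apm-1 (SD, n = 3 each). Their ratio overlapped between the groups (unc-101 to apm-1, 0.105 to 0.185 in anchor cell libraries, against 0.0687 to 0.153 in whole-body libraries; exact permutation test, two-sided p = 0.3, adjusted p = 0.375). The log2 fold changes were 1.33 for unc-101 and 0.63 for apm-1, and neither passed.

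**Figure D3:**
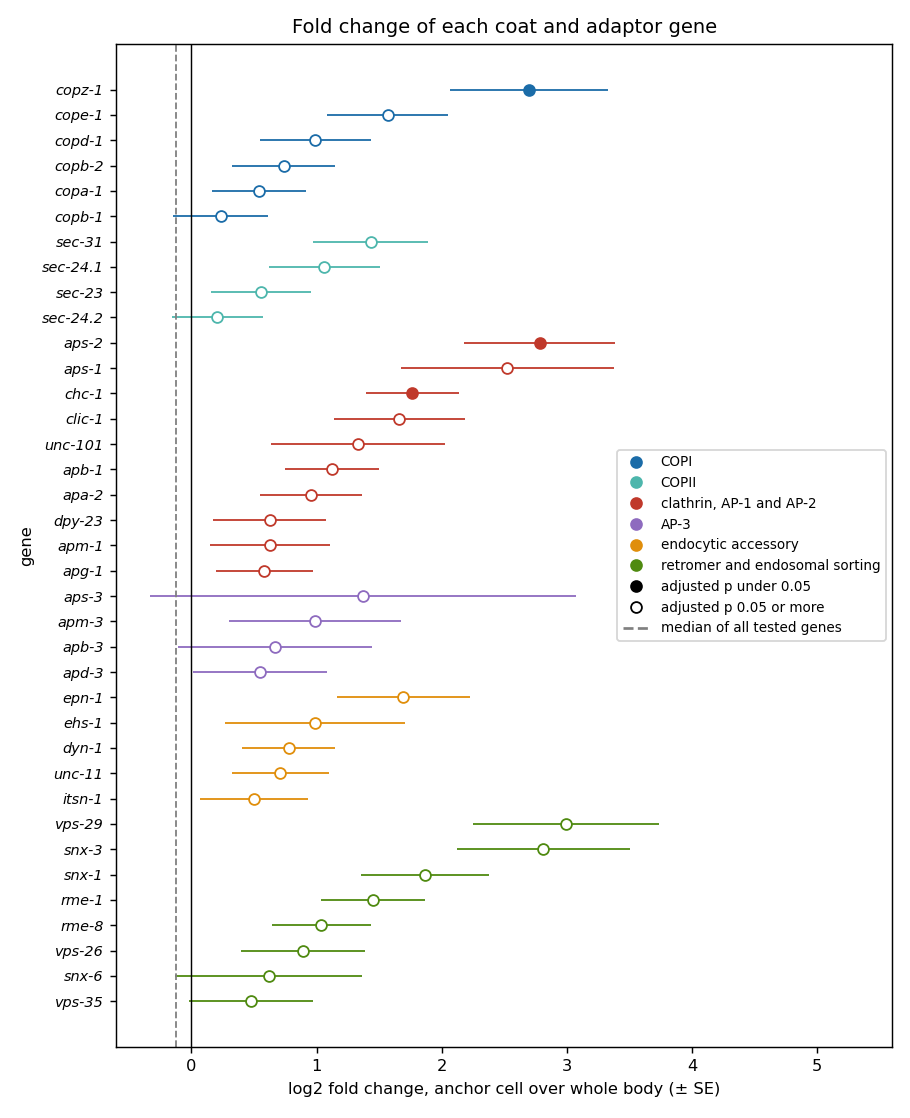
Log2 fold change of each gene, anchor cell over whole body, with SE bars, coloured by coat class. Filled points passed the adjusted p threshold of 0.05 and open points did not, and the dashed line is the median of all tested genes, -0.12. All 37 points lie right of 0, and the filled points are copz-1, aps-2 and chc-1.

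AP-3 had the lowest summed level per length of the 6 classes, and its genes disagreed between anchor cell libraries. Over its 4 genes the median was 0.83 on the log2 scale, and 0.075 with library totals. Leaving out anchor cell replicate 1 gave 0.39 and leaving out replicate 3 gave 1.27, and it was 0.34 with limma voom and 0.52 with the replicate number as a block. None passed, with 0 at an unadjusted p under 0.05 and 0 by DESeq2 or by limma voom with or without sample weights. The beta gene apb-3 had 53.9, 21.2 and 4.96 CPM in anchor cell replicates 1, 2 and 3, and 14.5, 19.4 and 16.4 CPM in whole-body replicates. The mu gene apm-3, the highest of the 4 per length in anchor cells at 17.01 ± 12.6 CPM per kb against 8.57 ± 2.15 in whole-body cells (SD, n = 3 each), followed the same order, with 43.7, 19.5 and 8.86 CPM in anchor cell replicates and 9.45, 15.4 and 11.5 CPM in whole-body replicates. For both genes replicate 1 lay above and replicate 3 below every whole-body library. The delta gene apd-3 was steadier, with 23.5, 26.8 and 21.1 CPM in anchor cell replicates and 12.7, 20.5 and 15.7 CPM in whole-body replicates (log2 fold change 0.55 ± 0.54, SE; edgeR adjusted p = 0.589). The sigma gene aps-3 had 0, 115 and 43 counts in anchor cell replicates and 34, 112 and 12 counts in whole-body replicates, and its log2 fold change of 1.37 ± 1.70 (SE; edgeR adjusted p = 0.682) is too uncertain to rank. A count of 0 allows up to 0.106 CPM of all gene counts, with no TMM factor, in anchor cell replicate 1, for counting error only.

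Of the endocytic accessory genes none passed, though all 5 had log2 fold changes above 0 under TMM scaling. Their median was 0.78, but -0.09 with library totals. Neither DESeq2 nor limma voom without sample weights called any of them, and with sample weights limma voom called epn-1. Epsin, which bends membrane at coated pits, had the largest difference and the highest level per length of all 37 genes in anchor cells, 380.0 ± 258 CPM per kb against 117 ± 26.7 in whole-body cells (SD, n = 3 each). Its gene epn-1 had 337, 750 and 1487 CPM in anchor cell replicates and 232, 335 and 229 CPM in whole-body replicates (log2 fold change 1.69 ± 0.53, SE; edgeR adjusted p = 0.0850). Anchor cell replicate 1 lay just above whole-body replicate 2, and replicate 3 was the highest of all. Without anchor cell replicate 1, epn-1 passed (edgeR adjusted p = 0.0185) and was 1 of 12 members called higher, against 7.28% of the genes then tested.

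The remaining accessory genes had smaller differences. The dynamin gene dyn-1, which encodes the GTPase that severs coated vesicles, had 208, 221 and 291 CPM in anchor cell replicates and 148, 156 and 116 CPM in whole-body replicates (log2 fold change 0.78 ± 0.37, SE; edgeR adjusted p = 0.233). The clathrin assembly protein gene unc-11, a homolog of AP180, differed by 0.71, and the groups did not overlap for either gene. The Eps15 homolog gene ehs-1 had 77.1, 109 and 10.0 CPM in anchor cell replicates and 32.3, 39.8 and 26.7 CPM in whole-body replicates, with replicate 3 below every whole-body library. Its partner intersectin, itsn-1, had the smallest difference of the class, with 78.7, 52.3 and 56.1 CPM in anchor cell replicates and 42.6, 36.1 and 53.3 CPM in whole-body replicates (0.50 ± 0.43, SE; edgeR adjusted p = 0.528), and its groups overlapped.

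Retromer and the endosomal sorting genes had a median of 1.24 on the log2 scale, next to 1.23 for the clathrin class, and 0.38 with library totals, but none of the 8 passed. In edgeR 5 were higher at an unadjusted p under 0.05 and 0 lower, against 11.2% and 13.2% of tested genes. DESeq2 called 3 of the 8, vps-29, snx-1 and snx-3, against 5.37% of its tested genes. Limma voom called snx-1 and rme-1, against 3.45%. The retromer core is a trimer, and its genes were unlike each other. The vps-29 gene had 83.1, 158 and 15.8 CPM in anchor cell replicates, against 10.7, 11.7 and 9.90 CPM in whole-body replicates. It had the largest log2 fold change of all 37 genes, 2.99 ± 0.74 (SE; edgeR adjusted p = 0.0603), with anchor cell replicate 3 only just above the whole-body range. It passed without anchor cell replicate 1 or 3 (edgeR adjusted p = 0.0489 and 0.0186). Of its exon length, 26.5% overlaps a protein-coding gene on the opposite strand, so its count is uncertain. The vps-35 gene, which encodes the arch that holds the trimer, had 58.8, 55.8 and 25.3 CPM in anchor cell replicates and 34.9, 38.5 and 27.4 CPM in whole-body replicates (0.47 ± 0.50, SE; edgeR adjusted p = 0.617), with replicate 3 below the whole-body range. The third core gene, vps-26, differed by 0.89 with no overlap (edgeR adjusted p = 0.310).

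Sorting nexins bind phosphoinositides on endosomes. The retromer partner gene snx-3 had 15.6, 83.4 and 83.1 CPM in anchor cell replicates and 11.02, 8.37 and 6.54 CPM in whole-body replicates (log2 fold change 2.81 ± 0.69, SE; edgeR adjusted p = 0.0594), with replicate 1 the lowest of its group. The gene snx-1 had 45.3, 52.6 and 79.0 CPM in anchor cell replicates and 18.1, 20.1 and 10.3 CPM in whole-body replicates (1.87 ± 0.51, SE; edgeR adjusted p = 0.0682). Its proposed partner snx-6 did not share that pattern, with 5.30, 42.5 and 21.5 CPM in anchor cell replicates and 11.8, 12.7 and 20.6 CPM in whole-body replicates. The ratio of snx-6 to snx-1 per length was 0.0831, 0.574 and 0.194 in anchor cell replicates, against 0.465, 0.449 and 1.43 in whole-body replicates, with overlap (exact permutation test, two-sided p = 0.3, adjusted p = 0.375). The values of snx-3 and snx-1 are given because of their size and were chosen after they were seen.

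The recycling gene rme-1, an EHD ATPase that returns receptors to the cell surface, had the highest level per length of the endosomal class in anchor cells, 183 ± 67.4 CPM per kb against 66.8 ± 18.1 in whole-body cells (SD, n = 3 each). Per library it had 504, 440.1 and 850 CPM in anchor cell replicates, against 179.5, 287 and 190.0 CPM in whole-body replicates. The groups did not overlap (log2 fold change 1.45 ± 0.42, SE; edgeR adjusted p = 0.0696). The endosomal DnaJ gene rme-8 differed by 1.04 ± 0.40 (SE; edgeR adjusted p = 0.139), also with no overlap.

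Set against each other within a library, the coat types made up different shares of the coat transcripts in the groups. Shares were taken of the summed CPM per kb of the 37 genes, which does not depend on library scaling. COPII took 13.3%, 11.6% and 14.6% in anchor cell replicates, against 17.3%, 19.3% and 19.1% in whole-body replicates, lower in all 3 anchor cell libraries. A lower share is not a lower level. With TMM scaling COPII summed to 251, 302 and 451 CPM per kb in anchor cell replicates, against 168, 241 and 187 in whole-body replicates. Retromer and endosomal sorting took 19.3%, 19.6% and 15.2% in anchor cell replicates, against 13.3%, 13.3% and 12.3% in whole-body replicates, higher in all 3. Clathrin with AP-1 and AP-2 took 31.9%, 28.8% and 27.3% in anchor cell replicates, against 25.7%, 26.7% and 24.4% in whole-body replicates, also higher in all 3, though by little for replicate 3. COPI shares overlapped, at 14.4%, 19.4% and 15.1% in anchor cells and 19.7%, 17.6% and 22.4% in whole-body cells, as did those of the accessory genes, at 18.1% to 27.3% in anchor cell libraries, against 20.0% to 22.5% in whole-body libraries. AP-3 held 0.469% to 2.91% in anchor cell libraries, against 1.57% to 1.89% in whole-body libraries.

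The separations of COPII and of the endosomal class held without chc-1, and that of the clathrin class did not. Without chc-1 the clathrin class took 19.8% to 24.09% in anchor cell libraries, against 18.9% to 21.4% in whole-body libraries, with overlap. COPII then took 12.9% to 16.1% in anchor cell libraries, against 18.7% to 20.7% in whole-body libraries. The endosomal class took 16.8% to 21.9% in anchor cell libraries, against 13.2% to 14.3% in whole-body libraries. With only the 30 members of more than 1200 bp of exon, COPII took 16.1% to 17.9% in anchor cell libraries, against 19.9% to 21.8% in whole-body libraries. The endosomal class then took 13.6% to 16.4% in anchor cell libraries, against 11.8% to 13.1% in whole-body libraries. COPI, at 11.08% to 11.9% in anchor cell libraries, against 14.4% to 19.6% in whole-body libraries, no longer overlapped. No test was made over a class, since its members were chosen with results of these data known.

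**Figure D4:**
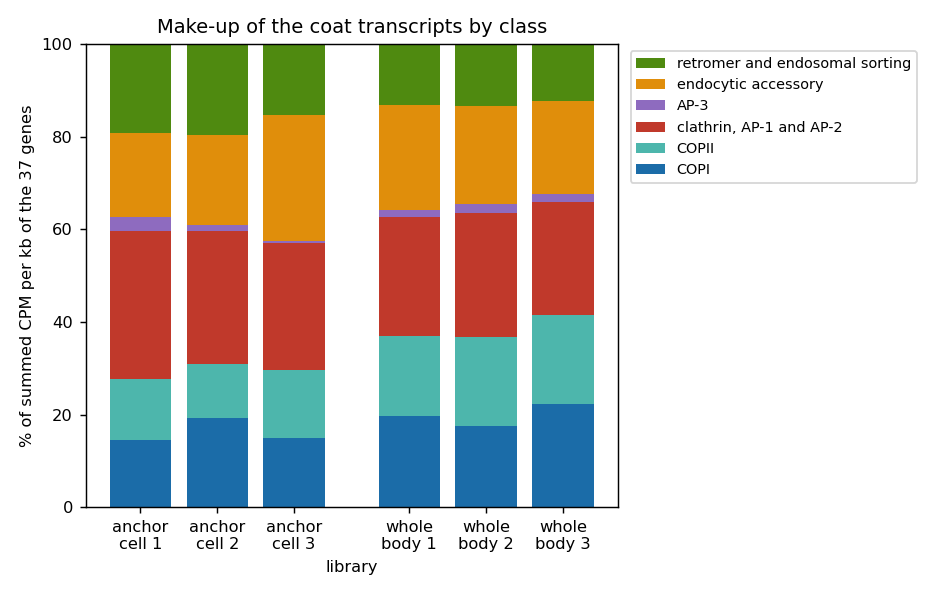
Stacked bars give the percent of the summed CPM per kb of the 37 genes that each coat class took in each library, anchor cells left and whole-body cells right. The COPII band is narrower in the 3 anchor cell bars (11.6% to 14.6%) than in the whole-body bars (17.3% to 19.3%), and the retromer and endosomal band is wider (15.2% to 19.6% in anchor cells, 12.3% to 13.3% in whole-body cells).

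The 5 largest differences were those of vps-29, snx-3, aps-2, copz-1 and aps-1, all with under 1000 bp of exon, while snx-1, chc-1 and epn-1, which are longer, came before clic-1 and cope-1. The 7 members of at most 1200 bp, a limit set after the values were seen, were aps-2, aps-1, copz-1, vps-29, snx-3, clic-1 and cope-1. Their log2 fold changes were 1.57 to 2.99, with a median of 2.70, and those of the 30 longer members 0.21 to 1.87, with a median of 0.83. Across the 37 genes Spearman's rho between log2 fold change and exon length was -0.53, and across 11125 tested protein-coding genes, in the same 6 libraries, it was -0.13. Against the whole-body mean rho over the members was -0.20, -0.59 and -0.27 in anchor cell replicates 1, 2 and 3. Tested protein-coding genes of at most 1200 bp had a median of 0.36 (3737 genes) and longer ones -0.24 (7388 genes). The part of transcript length in the members' values was not tested. The longest members, rme-8 with 7387 bp and chc-1 with 5395 bp, had log2 fold changes of 1.04 and 1.77.

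**Figure D5:**
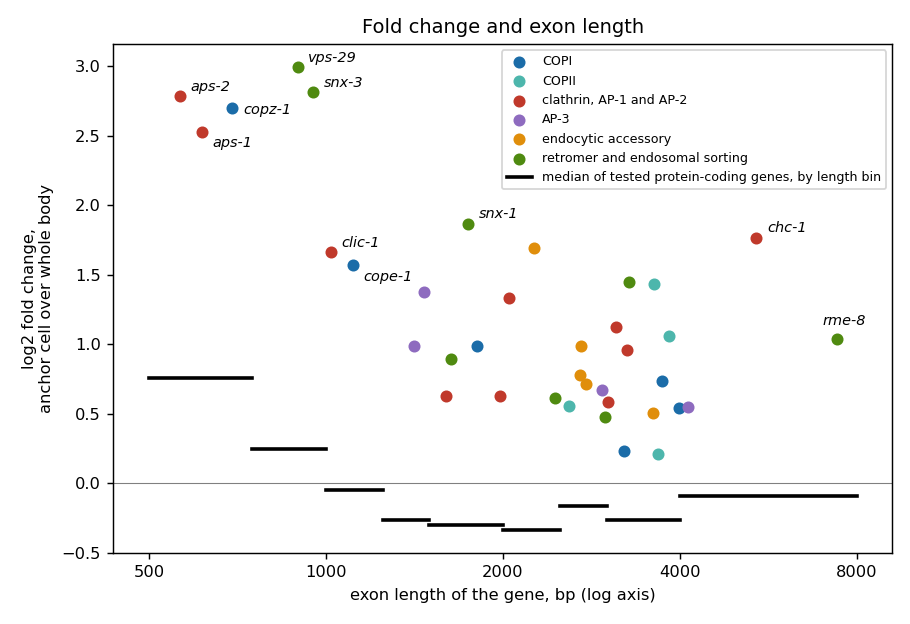
Log2 fold change, anchor cell over whole body, against exon length in bp on a log axis, for the 37 genes coloured by class. Black bars are medians of tested protein-coding genes in each length bin, 0.76 up to 750 bp and -0.33 between 2000 and 2500 bp. The points at upper left are the short genes aps-2, aps-1, copz-1, vps-29 and snx-3, and every point lies above the bar of its length.

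Partners of the coats were read from lists that hold no member. Of 31 names for GTPases, tethers and cargo receptors between endoplasmic reticulum and Golgi, 22 named a row and all 22 were tested. Their median log2 fold change was 1.10, or 0.21 with library totals, and 20 were above 0, or 14 with library totals, against 46.8% and 28% of all tested genes. In edgeR 1 rose and none fell, against 2.01% and 1.05% of all tested genes. The unadjusted p was under 0.05 for 6 higher and 0 lower genes, against 11.2% and 13.2%. DESeq2 and limma voom each called 2 higher and 0 lower, and limma voom with sample weights 3 and 0. Over all genes they called 5.37% and 10.6%, 3.45% and 9.47%, and 5.31% and 11%, in that order. The riser was arf-3, a small GTPase gene of the Arf family, which recruits coats, with 1001, 962 and 1868 CPM in anchor cell replicates, against 189, 271 and 249 CPM in whole-body replicates (log2 fold change 2.43 ± 0.43, SE; edgeR adjusted p = 0.0200). Of 23 tested partners of endocytosis none rose and 1 fell in edgeR, beside the same background of 2.01% and 1.05%, with a median of 0.79, or -0.07 with library totals. The unadjusted p was under 0.05 for 8 higher and 2 lower genes, against 11.2% and 13.2% of all tested genes. DESeq2 and limma voom each called 2 higher and 2 lower, and limma voom with sample weights 3 and 2. The one that fell, toca-2, encodes an F-BAR protein and had 5, 1 and 6 counts in anchor cell replicates, against 302, 312 and 351 in whole-body replicates (log2 fold change -5.48 ± 1.21, SE; edgeR adjusted p = 0.0426). The yolk receptor gene rme-2 had 0 counts in all anchor cell libraries, against 163, 108 and 149 in whole-body replicates (edgeR adjusted p = 0.0501).

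Of 30 tested endosomal partners 3 rose and none fell in edgeR, against 2.01% and 1.05% of all tested genes, with a median of 0.78, or -0.14 with library totals. For 8 higher and 0 lower genes the unadjusted p was under 0.05, against 11.2% and 13.2% of all tested genes. DESeq2 and limma voom each called 4 higher and 0 lower, and limma voom with sample weights 6 and 0. The 3 encode proteins of the ESCRT machinery, which sorts ubiquitinated cargo into multivesicular endosomes. The other ESCRT genes in the list, tsg-101, vps-28 and vps-4, did not pass (edgeR adjusted p = 0.247, 0.0977 and 0.363), and the groups overlapped for tsg-101 and vps-4. The ESCRT-0 genes stam-1 and hgrs-1, whose products bind each other, differed by 2.74 ± 0.53 and 2.00 ± 0.44, and the ESCRT-III gene vps-32.1 by 2.03 ± 0.43 (SE; edgeR adjusted p = 0.0294, 0.0439 and 0.0386). Levels of stam-1 were 61.1, 99.4 and 203 CPM in anchor cell replicates, against 15.7, 18.5 and 20.1 CPM in whole-body replicates. Those of hgrs-1 were 212, 99.7 and 188 CPM in anchor cell replicates, against 35.9, 53.1 and 36.1 CPM in whole-body replicates. Those of vps-32.1 were 219, 448 and 330.3 CPM in anchor cell replicates, against 60.7, 76.1 and 107 CPM in whole-body replicates. Every anchor cell library lay above every whole-body library for these 3 genes. Without whole-body replicate 1, 2 or 3, the calls of all 5 partner genes were lost. In that order the edgeR adjusted p was 0.0923, 0.0537 and 0.128 for arf-3, 0.103, 0.0823 and 0.136 for stam-1, 0.203, 0.100 and 0.136 for hgrs-1, 0.191, 0.129 and 0.136 for vps-32.1, and 0.170, 0.113 and 0.140 for toca-2. Without anchor cell replicate 2 those of toca-2, stam-1, hgrs-1 and vps-32.1 were lost (edgeR adjusted p = 0.0712, 0.0620, 0.0502 and 0.0906), and without anchor cell replicate 3 those of hgrs-1 and vps-32.1 (0.0741 and 0.0659). With library totals arf-3, stam-1, hgrs-1 and vps-32.1 lost their calls (edgeR adjusted p = 0.0636, 0.0614, 0.211 and 0.138) while toca-2 kept its call (0.0226), and with upper-quartile scaling hgrs-1 lost its call (0.0564).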

How the data were processed

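The deposited values are raw read counts of genes, not normalized by the authors, with 5 summary rows per library that were left out throughout. Reads on no gene were 0.807% to 3.88% and reads on more than 1 gene 0.303% to 0.677% of a library. Per the submitters' processing notes, the tools were STAR, HTSeq, Trim Galore, FastQC, DESeq2 1.30.1 and R 4.0.2, with build WBcel235. Per the labels, libraries came from 8 to 10 ng of RNA amplified with the Ovation RNA-Seq System. Reads of amplified RNA repeat molecules, so limits from depth cover counting error only.

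Genes kept by filterByExpr of edgeR 4.0.16 (11955) were scaled by TMM (factors 0.674 to 0.889 for anchor cell libraries, 1.17 to 1.66 for whole-body libraries). They were tested in R 4.3.3 by the robust quasi-likelihood F test on the group alone, with Benjamini-Hochberg adjustment over all tested genes. The test was also run on simulated counts, built from the means, library sizes and dispersions of the main fit, with a result not given here. SE is the absolute log2 fold change divided by the square root of F. Exon length is the union of exons in Ensembl release 115 of WBcel235, which may differ from the submitters' annotation, and 95.4% of gene rows matched it. Ratios to the whole-body mean use log2(CPM + 0.5). The 5 gene ratios and the length split were chosen after the values were seen. By rule, values are given for genes past the threshold and, in each class, for the largest and smallest log2 fold change and the highest level per length. Values of other members, and of him-4, zmp-1, lin-3, elt-2, ges-1, bli-1, sqt-3, rme-2, tsg-101, vps-28 and vps-4, were added after they were seen. Members and lists were chosen with earlier results of these data known. No library duplicated another (chi-square per degree of freedom 81 or more). Alternatives were upper-quartile, DESeq2 size factor and library-total scaling, DESeq2 1.42.0, limma 3.58.1 voom, the replicate number as a block, no filter, a filter of 10 CPM in 3 or more libraries, leaving out rRNA and mitochondrial genes, and leaving out each library. Sample weights in limma voom were a later choice, made after seeing the data. No sequences were used here.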

Additional observations from a re-analysis of the deposited data

How the results depend on the processing

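The number of coat genes called higher was 3 of 37 and depended on the test and on single libraries. It was 0 with library totals alone (against 0.82% of all tested genes), 2 with upper-quartile scaling (1.67%), 7 with DESeq2 (against 5.37% of its tested genes), 5 with limma voom (3.45%), 10 with limma voom and sample weights (5.31%) and 7 without a filter on low counts (2.25%). With each library left out it ranged from 0 to 12, with 12 once anchor cell replicate 1 was removed (7.28%), 2 without anchor cell replicate 3, and 0 without any 1 of the other 4 libraries. Leaving a library out also leaves fewer to estimate each gene's spread. With the replicate number as a block 5 members were called higher (3.26%). The deviations of same-numbered libraries from their group means correlated at 0.053, -0.032 and -0.0032. With 3 libraries per group that differ widely from each other, these values cannot show whether the numbers pair the samples. No alternative called a member lower.

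The median of all members was 0.83 with upper-quartile scaling, 0.14 with library totals, 0.85 with limma voom, 0.80 with sample weights, 0.79 with at least 10 CPM in at least 3 libraries (35 members left), and 0.90 to 1.12 with each library left out. Its distance from the median of all tested genes was 1.503 with DESeq2, 1.61 with limma voom, 1.602 with sample weights, 2.12 without a filter, 0.73 with at least 10 CPM, 1.62 with the replicate block, and 1.007 to 1.66 with a library left out. With library totals the class medians were -0.044 for COPI, -0.11 for COPII and -0.094 for accessory genes, all turned round, and 0.34 for clathrin with AP-1 and AP-2, 0.075 for AP-3 and 0.38 for the endosomal class. The clathrin class was 1.009 with upper-quartile scaling, 0.97 with at least 10 CPM and 1.05 with sample weights, and 1.08 to 1.34 with a library left out. The accessory class was 0.56, 0.59 and 0.67 under the same settings, and 0.65 to 0.85 with a library left out.

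With library totals the log2 fold changes of 15 members turned below 0: copa-1 -0.30, copb-1 -0.62, copb-2 -0.17, sec-23 -0.35, sec-24.2 -0.67, dpy-23 -0.20, apg-1 -0.27, apm-1 -0.33, apb-3 -0.064, apd-3 -0.33, unc-11 -0.11, dyn-1 -0.094, itsn-1 -0.27, vps-35 -0.34 and snx-6 -0.29. With each library left out copb-1 ranged from -0.044 (anchor cell replicate 3 removed) to 0.40, apb-3 from -0.36 (anchor cell replicate 1 removed) to 1.16, and snx-6 from -0.16 (anchor cell replicate 2 removed) to 1.09. With limma voom aps-3 was at -0.53. None of these values passed the test. The cause of these changes was not tested.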
